A study of Mus musculus with 6 samples.

Results

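Cholinergic genes were examined in hippocampal RNA-seq of mice injected with substance P (SP). The 10 genes were chosen by name among the 55421 genes of the deposited table. They are 4 nicotinic receptor subunits (*Chrna4*, *Chrna5*, *Chrna7* and *Chrnb2*), 4 muscarinic receptors (*Chrm1*, *Chrm2*, *Chrm3* and *Chrm4*), acetylcholinesterase (*Ache*) and the nicotinic modulator *Lynx1*. Hippocampi came from wild-type male C57BL/6N mice aged 8 to 10 weeks. In 1 group, 3 mice received SP (10 µM, 100 µL) under the skin for 14 days, and in the other 3 mice received the same volume of saline as vehicle. The libraries labelled vehicle 1, 2 and 3 held 23105903, 24560605 and 27605935 estimated counts, and those labelled SP 1, 2 and 3 held 23608419, 24284625 and 22349964. The labels call the replicate number a batch, so each number pairs 1 mouse of each group. Higher and lower below mean libraries labelled SP against libraries labelled vehicle. Whether the 2 group labels are the right way round is in doubt. The study reports *Gsg1l* and *Nr4a2* as higher and *Mag* and *Mbp* as lower after SP. In the libraries as labelled, each of these genes goes the other way. No gene measured here shows which mice received SP. The direction of every difference below rests on the labels and would turn if they were exchanged.

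In the hippocampus, acetylcholine is released mainly by axons of septal neurons. Nicotinic receptors are cation channels built of several subunits, and *Chrna4* with *Chrnb2* forms the main high-affinity type of the brain, which *Chrna5* can join as an accessory subunit. *Chrna7* forms channels on its own. Muscarinic receptors act through G proteins: *Chrm1* and *Chrm3* couple to Gq and phospholipase C, whereas *Chrm2* and *Chrm4* couple to Gi and lower cAMP. *Ache* breaks acetylcholine down, and *Lynx1* is a membrane-anchored protein that dampens nicotinic currents.

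Among the 10 genes, *Chrna4* showed the difference with the lowest p. It was lower in each library labelled SP, while its partner *Chrnb2* differed little. Levels are in CPM, each count scaled to the normalized size of its library by edgeR's cpm function. *Chrna4* (ENSMUSG00000027577, chr2:181018380-181043546 of GRCm38, minus strand) had 28.1, 24.7 and 26.0 CPM in vehicle 1, 2 and 3 and 18.0, 15.9 and 20.0 CPM in SP 1, 2 and 3. Every SP library was below every vehicle library. The means were 26.3 ± 1.68 CPM and 18.0 ± 2.02 CPM (SD, n = 3 mice each). The log2 fold change was -0.55 (standard error 0.0821, 95% interval from -0.74 to -0.36), with an unadjusted p of 0.00022 and an FDR of 0.237 in edgeR's quasi-likelihood test, so *Chrna4* was not called at FDR < 0.1. DESeq2 with the replicate block, the tool and adjustment named in the study's methods, gave an FDR of 0.0622 and a log2 fold change of -0.55, which passes FDR < 0.1 and |log2FC| > 0.3. Over 16 alternatives the FDR of *Chrna4* ran from 0.00136 to 0.579. It passed both thresholds in 5 of them and was negative in all 16.

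**Figure D1:**
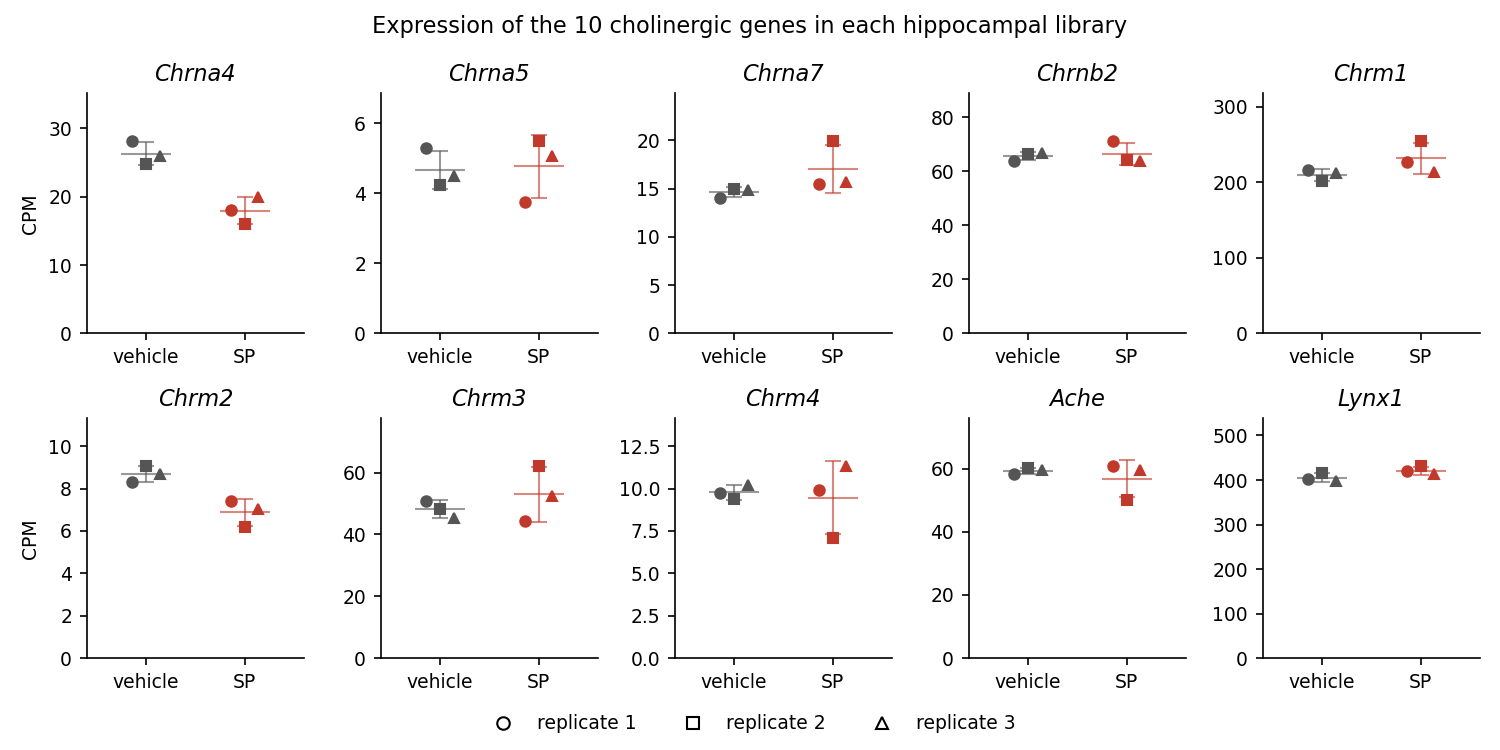
Expression of the 10 genes in each library, in CPM on linear axes from 0, with 3 vehicle libraries in grey and 3 SP libraries in red. Symbols mark the replicate number, and bars give the mean and SD. In *Chrna4* the SP libraries lie between 15.9 and 20.0 CPM, below the 24.7 to 28.1 CPM of the vehicle libraries.

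The other nicotinic subunits differed less. *Chrnb2* (ENSMUSG00000027950) had 63.8, 66.3 and 66.9 CPM in the vehicle libraries and 71.1, 64.3 and 63.7 CPM in the SP libraries. These ranges overlapped, and the 95% interval of its log2 fold change, -0.14 to 0.16, does not reach the value of *Chrna4*. *Chrna7* (ENSMUSG00000030525) had 14.0, 15.0 and 14.8 CPM against 15.5, 19.9 and 15.7 CPM. All SP libraries were above all vehicle libraries, with SP 2 standing highest. On the log2 scale SP exceeded vehicle by 0.21 ± 0.0930 (standard error; FDR 0.500 in edgeR), and by 0.11 without replicate 2. Its unadjusted p was under 0.05 in 2 of 16 alternatives. The accessory subunit *Chrna5* (ENSMUSG00000035594) was low, from 3.75 to 5.48 CPM over the 6 libraries, and its groups overlapped. Its interval, from -0.42 to 0.46 on the log2 scale, is the widest of the 10 genes. The estimate was 0.023, and it was 0.27 without replicate 1 and -0.15 without replicate 2, so its sign is not settled.

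Among the muscarinic receptors *Chrm2*, which acts through Gi, was lower in the SP libraries. *Chrm2* (ENSMUSG00000045613, chr6:36388084-36528414, plus strand) had 8.29, 9.05 and 8.67 CPM in the vehicle libraries and 7.41, 6.18 and 7.05 CPM in the SP libraries. The groups did not overlap, and SP 2 was lowest. The fitted log2 fold change of *Chrm2* was -0.34 with a standard error of 0.117 and an unadjusted p of 0.0225 (FDR 0.429 in edgeR). Without replicate 2 it was -0.23, and with DESeq2 and the replicate block the unadjusted p was above 0.05. A long noncoding gene, *9330158H04Rik*, overlaps *Chrm2* on the opposite strand, and whether the counting used strand is not given in the sources used here.

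The Gq-coupled receptors had overlapping groups, and neither had an unadjusted p under 0.05 in edgeR with all 6 libraries and the filter. Of 16 alternatives, 4 had *Chrm1* under 0.05 and 2 had *Chrm3*. *Chrm1* (ENSMUSG00000032773) had 216, 201 and 212 CPM in the vehicle libraries and 226, 254 and 214 CPM in the SP libraries. Each SP library was above its numbered partner, with SP 2 standing highest. The fitted log2 fold change was 0.14 with a standard error of 0.0705 (FDR 0.551). It was 0.041 without replicate 2, and 0.20 with an unadjusted p of 0.0476 (FDR 0.479) without replicate 3. *Chrm3* (ENSMUSG00000046159) ranged from 44.3 CPM in SP 1 to 62.1 CPM in SP 2. Its log2 fold change was 0.12 (FDR 0.723), and 0.0051 without replicate 2. Without replicate 1 it was 0.28, with an unadjusted p of 0.0142 (FDR 0.760), so the estimate moved with the replicate left out. *Chrm4* (ENSMUSG00000040495) had a log2 fold change of -0.07 (FDR 0.890) and was lowest in SP 2 with 7.10 CPM and highest in SP 3 with 11.3 CPM. Without replicate 2 it was 0.09.

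For breakdown and damping of the signal, the groups overlapped in *Ache* and in *Lynx1*. *Ache* (ENSMUSG00000023328) had 58.4 to 60.1 CPM in the vehicle libraries and 60.8, 50.2 and 59.5 CPM in the SP libraries, so that SP 2 alone stood below the rest. Its log2 fold change was -0.07 (95% interval from -0.24 to 0.11) and 0.028 without replicate 2. *Lynx1* (ENSMUSG00000022594) was the most abundant of the 10 genes in CPM, at 397 to 416 CPM in the vehicle libraries and 413 to 431 CPM in the SP libraries. It was slightly higher in 3 of 3 pairs, with a log2 fold change of 0.05 (95% interval from -0.06 to 0.17, FDR 0.760).

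**Figure D2:**
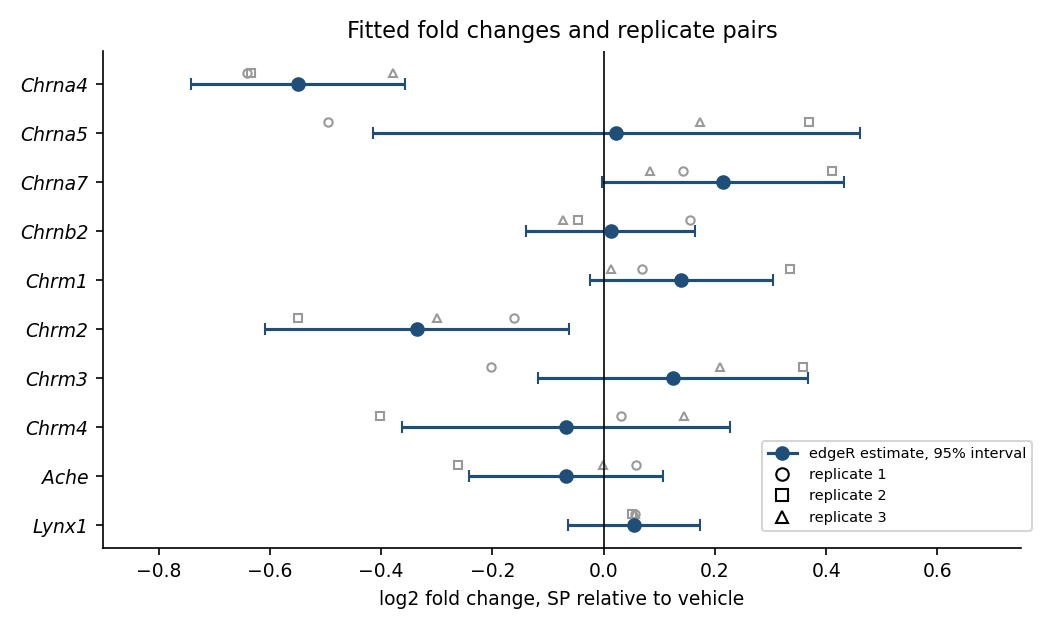
Log2 fold changes of the 10 genes, SP relative to vehicle, with edgeR estimates and 95% intervals in blue and the log2 CPM ratio of each replicate pair as open symbols. The interval of *Chrna4* runs from -0.74 to -0.36, and that of *Chrm2* also lies below 0.

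The 10 genes were read against all genes tested. All 10 genes passed edgeR's filter on low counts, which left 17069 genes, and 0 of 10 were called, where 5 genes (0.0293%) were called in all. At an unadjusted p under 0.05, 2 of 10 were lower and 0 higher, beside 5.59% and 4.48% of all tested genes. With DESeq2 and the replicate block, 1 of 10 was lower at an unadjusted p under 0.05 and 0 higher, beside 2.31% and 1.82% of all tested genes. That gene, *Chrna4*, was also the 1 of 10 called in that fit, beside 0.211% of all tested genes. The groups did not overlap in 2 genes on the lower side and 1 on the higher side, beside 9.03% and 9.19% of all tested genes. The median log2 fold change of the 10 genes was 0.018, against 0.0015 over all tested genes. With so few members, chosen with earlier results of these data known, these counts only describe the family.

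Levels were compared between genes as CPM per kb of the median length of their protein-coding transcripts. *Lynx1* was highest at 182 ± 4.33 CPM per kb in the vehicle libraries (SD, n = 3), and *Chrm2* lowest at 1.53 ± 0.0668 (SD, n = 3). *Ache* at 140 and *Chrna4* at 20.3 CPM per kb depend on the length used, because short partial transcript models pull their median length down to 423.5 and 1295 bases. With the longest coding transcript of 2186 and 4565 bases, their levels were 27.2 and 5.75 CPM per kb. On that scale *Chrm1*, at 33.4 CPM per kb, stood above *Ache*, and *Chrna4* moved from above *Chrm3* to below *Chrm4* in the order by the mean of the 6 libraries. By median length, *Chrna4* was above *Chrm3* in the vehicle libraries, at 20.3 against 15.8 CPM per kb, and below it in the SP libraries, at 13.9 against 17.3 CPM per kb. The annotation of *Chrm4* is a single model of 1440 bases, so its level per kb may be set too high if its transcripts are longer. Ranges over the 6 libraries overlapped between the neighbours *Chrna4* and *Chrm3*, and between *Chrna7* and *Chrm4*, while other neighbours in the order by median length were apart.

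**Figure D3:**
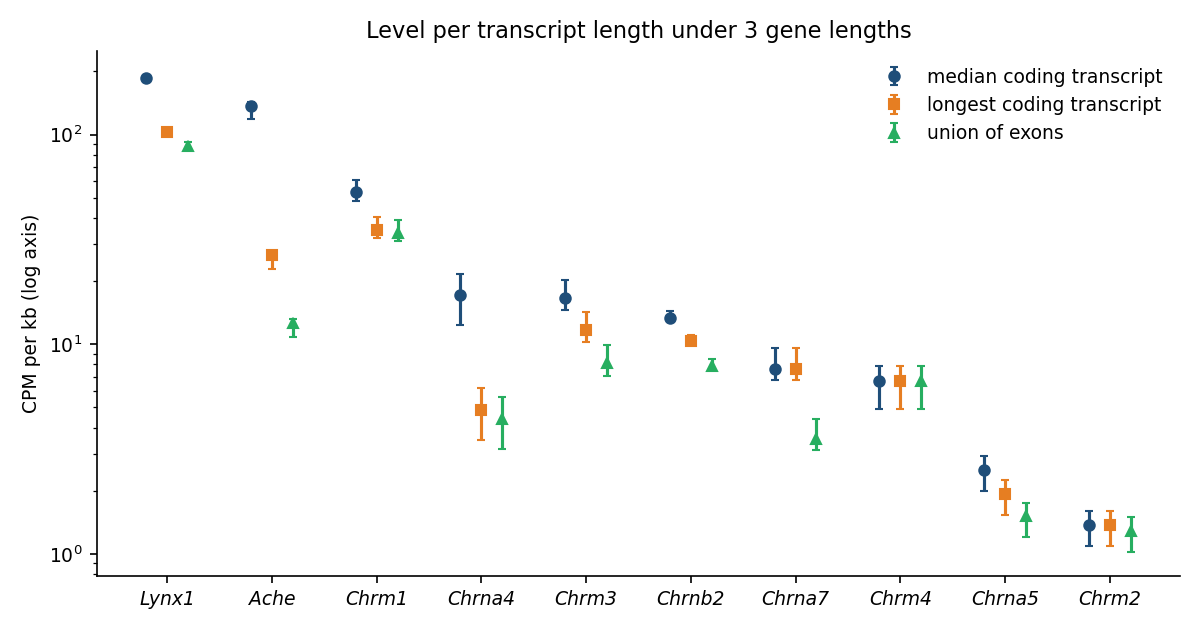
Level of each gene as mean CPM per kb over the 6 libraries on a log axis, with the range over libraries as bars, for 3 definitions of gene length. *Lynx1* is highest under each length, while *Ache* ranges from 12.6 to 137 CPM per kb between them.

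The balance between subunits moved with *Chrna4*. By median length, the ratio of *Chrna4* to *Chrnb2* was 1.68, 1.42 and 1.48 in the vehicle libraries and 0.965, 0.946 and 1.20 in the SP libraries. With the longest coding transcript the means were 0.561 in vehicle and 0.381 in SP libraries, and with the union of exons 0.668 and 0.453. On both of these scales *Chrna4* was below *Chrnb2* in every library, so which is higher depends on the length used. No SP library reached the lowest vehicle library, and the SP mean was 0.679 of the vehicle mean whichever length was used. The ratio of *Chrna5* to *Chrna4* was 0.123 ± 0.00639 in the vehicle libraries and 0.185 ± 0.0475 in the SP libraries (SD, n = 3 each). It was higher in every SP library, with 0.237 in SP 2. *Chrm1* and *Chrm3*, the Gq-coupled pair, made up 88.8 ± 0.457% of the muscarinic level of *Chrm1* to *Chrm4* in the vehicle libraries and 90.3 ± 2.53% in the SP libraries (SD, n = 3 each). That share was 89.4%, 93.1% and 88.3% in SP 1, 2 and 3, so the groups overlapped. The ratios carry the same data as the genes and were not tested.

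**Figure D4:**
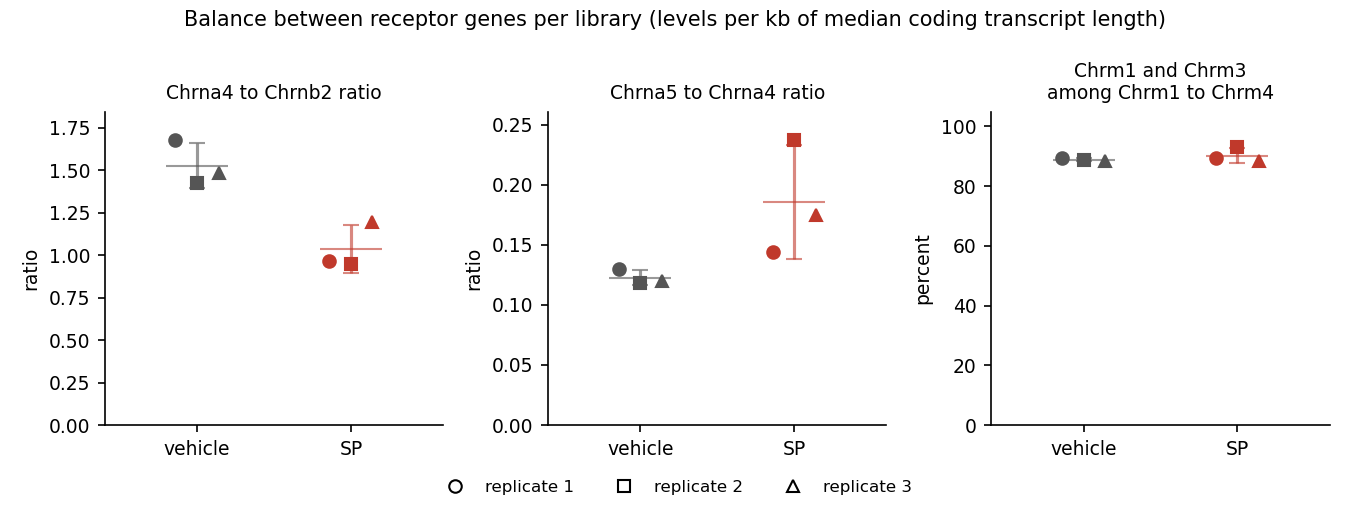
Length-scaled ratios of *Chrna4* to *Chrnb2* and of *Chrna5* to *Chrna4*, and the percent of *Chrm1* and *Chrm3* among *Chrm1* to *Chrm4*, in each library with the mean and SD. Levels are per kb of median coding transcript length. On that scale, the SP libraries reach at most 1.20 and the vehicle libraries at least 1.42 in the ratio of *Chrna4* to *Chrnb2*.

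The start regions of *Chrna4* and *Chrm2*, the 2 members at an unadjusted p under 0.05 in edgeR, are shown beside that of *Chrnb2*, which differed little. They are RefSeq sequence of GRCm38.p6 upstream of the start, and 8 of the 10 genes had an entry. Capitals mark the GC box GGGCGG or its reverse complement. The stretch of *Chrna4* lies at chr2:181039306-181039427 on the minus strand. This RefSeq start is inside the gene as annotated by GENCODE, which reaches 5′ to position 181043546. Of the 250 bases before it, 128 lie in an annotated exon of *Chrna4* and are not shown. They are the bases next to the RefSeq start, so the stretch shown is the far part of the window. *Chrnb2* lies at chr3:89764633-89764882 on the minus strand and *Chrm2* at chr6:36387834-36388083 on the plus strand, where an exon of *9330158H04Rik* on the minus strand overlaps it.
Chrna4: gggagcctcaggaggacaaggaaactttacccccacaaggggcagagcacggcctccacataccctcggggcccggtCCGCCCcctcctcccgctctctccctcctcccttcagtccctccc
Chrm2: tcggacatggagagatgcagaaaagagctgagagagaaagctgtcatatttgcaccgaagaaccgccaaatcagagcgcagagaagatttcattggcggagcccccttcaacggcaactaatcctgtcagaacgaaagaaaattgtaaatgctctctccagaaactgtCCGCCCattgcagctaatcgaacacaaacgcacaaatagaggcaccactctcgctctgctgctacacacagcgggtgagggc
Chrnb2: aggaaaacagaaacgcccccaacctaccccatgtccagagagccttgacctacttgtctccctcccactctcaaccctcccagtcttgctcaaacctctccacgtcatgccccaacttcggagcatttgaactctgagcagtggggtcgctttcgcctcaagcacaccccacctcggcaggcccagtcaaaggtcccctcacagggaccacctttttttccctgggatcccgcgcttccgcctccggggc
Over the whole 250 bases before the start, *Chrna4* held 3 GC boxes, 1 of them in the stretch shown, *Chrm2* held 1 and *Chrnb2* held 0. Of 32851 promoters of this length, 32.7% held at least 1. The E-box CANNTG, found in 66.2% of promoters, occurred once in *Chrnb2* and not in the other windows. Over the same 250 bases, the G and C content was 74.4% in *Chrna4*, 59.6% in *Chrnb2* and 50.0% in *Chrm2*, against a median of 52.4%. For *Chrna4* this takes in the 128 exon bases. These matches describe the letters only, and no binding was measured.

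Other genes of acetylcholine signaling were counted by list. Of all tested genes, 5.59% were lower and 4.48% higher at an unadjusted p under 0.05 in edgeR. In DESeq2 with the replicate block, 2.31% were lower and 1.82% higher. The list of other nicotinic subunits together with *Chrm5* held 13 genes, of which 6 were tested. Of these, 1 was at an unadjusted p under 0.05 in edgeR and 0 in DESeq2 with the replicate block. *Chrna3* had 4.86 CPM in SP 2 and 0.314 to 0.687 CPM in the other 5 libraries, and *Chrnb4* had 15.1 CPM in SP 2 and at most 1.39 CPM elsewhere. Both rest on that library: without replicate 2 the log2 fold change of *Chrna3* was 0.089. *Chrm5*, the most abundant of this list in the vehicle libraries, had 2.62, 2.02 and 2.39 CPM in the vehicle libraries and 1.36, 1.54 and 2.11 CPM in the SP libraries (log2 fold change -0.50, FDR 0.512, and -0.28 without replicate 1). *Chrnd* and *Chrng*, subunits of the muscle receptor, had 0 counts in each library, which allows at most 0.109 to 0.135 CPM.

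Chaperones and Ly6-type modulators of nicotinic receptors comprised 9 genes, of which 7 were tested, with 2 lower and 0 higher at an unadjusted p under 0.05 in edgeR, and 1 lower in DESeq2 with the replicate block. *Tmem35a*, a chaperone needed for assembly of nicotinic receptors, had 44.0, 45.3 and 42.6 CPM in the vehicle libraries and 37.2, 34.4 and 39.6 CPM in the SP libraries. The groups did not overlap, and the fitted log2 fold change was -0.25 with a standard error of 0.0728 (FDR 0.394 in edgeR). *Lypd1*, a modulator related to *Lynx1*, had a log2 fold change of -0.18 (FDR 0.458) and -0.087 without replicate 2. The chaperone *Ric3* had -0.07 (FDR 0.694), and *Ly6h*, the most abundant of the list in the vehicle libraries, also had -0.07 (FDR 0.901). Without replicate 2, *Ly6h* had 0.19, so its sign turned.

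Synthesis, transport and breakdown were covered by 7 genes, of which 5 were tested and 2 were higher at an unadjusted p under 0.05 in edgeR, and 1 in DESeq2 with the replicate block. The choline transporter *Slc44a1*, the most abundant, had a log2 fold change of 0.21 (FDR 0.455), and *Prima1*, which anchors acetylcholinesterase in the membrane, had 0.62 (FDR 0.464) at 0.889 to 1.62 CPM. Without replicate 2, *Slc44a1* had 0.097, and 0 genes of this list were under 0.05 without replicate 1 or 2. *Chat*, the enzyme that makes acetylcholine, and the vesicle transporter *Slc18a3* had at most 7 counts in a library, and they were not tested. All 16 muscarinic effectors were tested. In edgeR, 1 was lower and 0 higher at an unadjusted p under 0.05, beside 5.59% and 4.48% of all tested genes. Without replicate 1, 0 were lower, and without replicate 2, 3 were lower. Of all tested genes, 5.93% and 11.4% were under 0.05 in these fits, counting both directions. The 1 gene lower with all 6 libraries was *Rgs4*, a brake on Gq and Gi signaling. It had -0.19 on the log2 scale with a standard error of 0.0545 (FDR 0.384) and no overlap between groups. *Gnao1*, the most abundant effector, had 0.04 (FDR 0.862). No gene of these 4 lists was called in edgeR.

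The genes whose profile was nearest to that of *Chrna4* were *Gsg1l*, *9130024F11Rik* and *Prkg2*, with root mean square distances of 0.0534, 0.0610 and 0.0651 between centred log2 CPM over the 6 libraries. The median distance of all tested genes was 0.320. Those nearest to *Chrm2* were *Chml*, *Hey2* and *Grik3*, at 0.0338, 0.0363 and 0.0367, with a median of 0.223. With 2 groups of libraries, genes that separate them in the same direction by a similar size come near, and the distance carries no test.

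Markers of cell types and neighbouring regions were read in the same libraries. Marker genes are counted as lower or higher at an unadjusted p under 0.05, in edgeR unless another fit is named. Estimates of either sign above that p are not counted. Of all tested genes, edgeR had 5.59% lower and 4.48% higher. *Zbtb20* and *Prox1*, strong in hippocampal neurons, were present in each library at 236 to 359 and 75.5 to 129 CPM. Of the 12 genes of neocortical layers and subplate, 5 were lower and 0 higher at an unadjusted p under 0.05, with a median log2 fold change of -0.19. DESeq2 with the replicate block had 3 lower and 0 higher. Their summed level was 284, 265 and 268 CPM in the vehicle libraries and 236, 222 and 250 CPM in the SP libraries, without overlap, and *Tbr1* was the most abundant in the vehicle libraries. *Cux2* had a log2 fold change of -0.64, with an FDR of 0.308 in edgeR and of 0.0128 in DESeq2 with the replicate block, which calls it. Of 6 subiculum genes, 5 were tested and 2 were lower, with summed levels of 169, 174 and 173 CPM against 149, 120 and 152 CPM. The median of the subiculum genes was -0.39, and -0.12 without replicate 2. *Fn1* was the most abundant, and *Slc17a6*, also on the thalamus list, had -0.48 (FDR 0.308). *Nr4a2*, another subiculum gene, had -0.39, with an FDR of 0.308 in edgeR and 0.0892 in that DESeq2 fit. On all genes with a count, DESeq2 gave *Nr4a2* an FDR of 0.105, and the call was lost. In bulk tissue, fewer cells of a type and less RNA per cell cannot be told apart, and the part of these regions in the value of *Chrna4* was not tested.

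Of 10 hippocampal pyramidal and granule cell genes, 4 were higher and 1 lower, with a median of 0.22 and *Zbtb20* most abundant. Without replicate 2 the median was 0.069, with 4 higher and 3 lower. Their summed level was 1277, 1234 and 1305 CPM against 1331, 1435 and 1236 CPM. Of 8 thalamus genes, 2 were lower in edgeR and 1 in DESeq2 with the replicate block, and the sums of 123, 159 and 133 CPM overlapped those of 136, 143 and 123 CPM. Without replicate 2, 1 was lower and 1 higher. *Rora* was the most abundant in the vehicle libraries. Of 8 interneuron genes, 1 was lower in edgeR and 0 in that DESeq2 fit, with sums of 678, 757 and 696 CPM against 702, 544 and 730 CPM, led by *Gad1* and lowest in SP 2. Their median was -0.074, and without replicate 2 it turned to 0.079, with 0 lower and 2 higher. *Ache*, *Chrm4*, *Chrna4* and *Chrm2* were lowest in SP 2 as well, while *Chrna5*, *Chrna7*, *Chrm1*, *Chrm3* and *Lynx1* were highest there. The part of interneurons in these values was not tested.

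Of 8 oligodendrocyte genes, 6 were higher and 0 lower at an unadjusted p under 0.05 in edgeR. Their median was 0.36, and 0.18 without replicate 2. With DESeq2 and the replicate block, 4 were higher and 1 was called. *Mbp* led their sums, which were 4149, 4158 and 4657 CPM against 5293, 6823 and 4765 CPM. The 6 choroid plexus genes had sums of 3853, 3776 and 4705 CPM against 170, 2776 and 3933 CPM, led by *Ttr*, with 3 lower in edgeR and 0 in DESeq2 with the replicate block. This sum was lowest in SP 1. The median was -1.26, and it was -0.35, -1.63 and -1.98 without replicate 1, 2 and 3. In each of these fits, 6 of 6 were lower at an unadjusted p under 0.05 in edgeR. Without replicate 1, where the choroid plexus genes were lower too, the log2 fold change of *Chrna4* was -0.50 (FDR 0.579 in edgeR). The part of this tissue in the value of *Chrna4* was not tested.

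The 7 medial habenula genes, of which 6 were tested, summed to 48.6, 44.2 and 49.4 CPM against 42.3, 62.6 and 45.3 CPM, led by *Nwd2*. The sum of SP 2 holds the 15.1 CPM of *Chrnb4* and the 4.86 CPM of *Chrna3* given above. Only *Chrna3* passed an unadjusted p of 0.05 in edgeR. The habenula gene *Pou4f1* had at most 0.170 CPM and *Gpr151* at most 0.852 CPM in each library, SP 2 included, and the part of this tissue in the values of *Chrna3* and *Chrnb4* was not tested. The 8 genes of septal and striatal cholinergic neurons, of which 3 were tested, had 0 at an unadjusted p under 0.05 in edgeR and were led by *Zic4*. They summed to 8.51, 17.1 and 9.33 CPM against 7.67, 12.3 and 12.1 CPM. *Chat* had 0 counts in 3 of the 6 libraries, and its level was near the limit that a count of 0 allows.

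**Figure D5:**
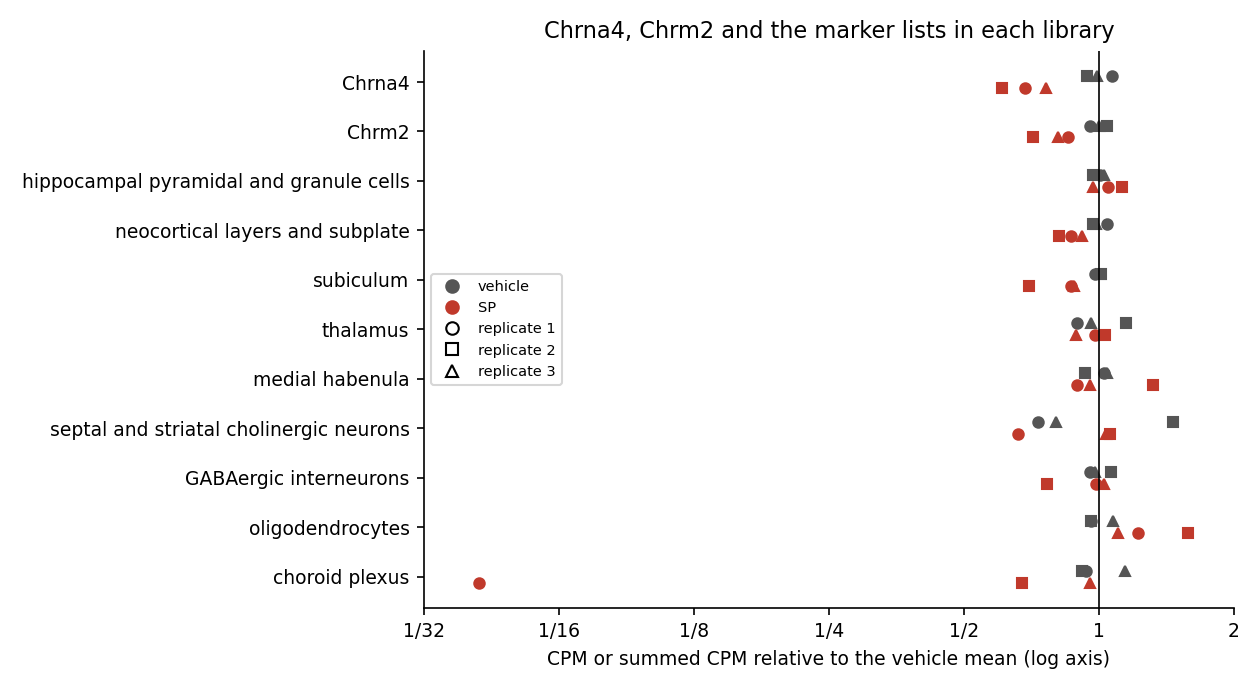
*Chrna4*, *Chrm2* and the summed CPM of each marker list in each library, relative to the vehicle mean, on a log axis. Grey symbols are vehicle libraries and red symbols SP libraries. Neocortical and subiculum sums lie lower in the 3 SP libraries, and the choroid plexus sum of SP 1 is 170 CPM.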

How the data were processed

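Hippocampal RNA of 3 SP and 3 vehicle mice was sequenced from stranded mRNA libraries. The authors trimmed reads with Trim Galore, aligned them to GRCm38 with STAR and deposited estimated counts per gene from Salmon. Versions and annotation release are not given in the sources used here. Of the values, 9.77% were not whole, and they were rounded. Genes were filtered by filterByExpr (minimum count 10, minimum total 15), normalized by TMM and tested in edgeR 4.0.16 (R 4.3.3) by its quasi-likelihood test, blocked on the replicate number, because the study's methods adjust for replicates and the labels call it a batch. Deviations of same-numbered mice from the mean of their group correlated at 0.0140, -0.0656 and 0.0734 across genes. P-values were adjusted by Benjamini-Hochberg over all 17069 genes, and calls needed FDR < 0.1 and |log2FC| > 0.3. The fits were tested on simulated data. Lengths and positions came from GENCODE M21, which holds 55154 of the 55421 identifiers. DESeq2 1.42.0 and limma-voom (limma 3.58.1) were alternatives. DESeq2 was first run on all genes with a count and then, after those results were seen, on the filtered genes, so that only the tool changed. Both are given. Named genes are the 10 members, and of each list those at an unadjusted p under 0.05 or most abundant by vehicle mean. *Chrnb4*, *Chrm5*, *Ric3*, *Chrnd*, *Chrng*, *Chat*, *Slc18a3*, *Prox1*, *Pou4f1* and *Gpr151* were named after their values were seen. The value of 1 marker gene is not reported here. The members and lists were chosen with earlier results of these data known.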

Additional observations from a re-analysis of the deposited data

How the results depend on the processing

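The replicate block, which pairs mice of the same number, also enters the filter on low counts. Leaving it out took the called genes from 5 of 17069 tested to 2 of 16707, and to 2 of the same 17069, the last chosen after seeing the data. No member was called in these fits. Called genes numbered 384 with no filter on low counts, 0 with at least 10 counts in every library, 2 with limma-voom, 36 and 132 with DESeq2 with and without the block, and 0 at FDR < 0.05. Leaving out each replicate number gave 9 to 36. DESeq2 on all genes with a count, run first and kept as an added alternative, gave 38 with the block and 116 without. *Chrna4* was the 1 member called with no filter in edgeR and in each of these 4 DESeq2 fits, and 0 members were called in the other fits, added or not. Counting members called was added after seeing the data. The cause of these differences was not tested.

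The 2 members at an unadjusted p under 0.05 became 4 with no filter, where 8.29% of all genes were under it in place of 10.1%. DESeq2 gave 1 with the block and 3 without, on filtered or all genes. Of all filtered genes, 4.13% and 8.24% were under it in these fits, and of all genes with a count 2.50% and 5.04%. Without replicate 1 it was 3 members, beside 5.93% of all tested genes. Without replicate 2 it was 1, beside 11.4%, and without replicate 3 it was 2, beside 10.2%. With no block, 4 were found without SP 1 and 2 without SP 2, beside 10.8% and 11.7% of all tested genes. These 2 fits were chosen after seeing the data. *Chrm2* had an unadjusted p above 0.05 in 4 of 16 alternatives, with log2 fold changes from -0.42 to -0.23 without each replicate number. The median of the members was -0.0025 and -0.0040 without replicate 1 and 3 and 0.035 without replicate 2, so it has no stable sign. Non-overlap was found in 3 members under each normalization run.

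By gene length, 40 of 45 member pairs kept their order by the mean of the 6 libraries with the union of exons or the longest coding transcript. The ratio of *Chrna4* to *Chrnb2* was 0.668 and 0.561 in vehicle and 0.453 and 0.381 in SP libraries, and that of *Chrna5* to *Chrna4* 0.285 and 0.332 in vehicle and 0.432 and 0.502 in SP libraries. The share of *Chrm1* and *Chrm3* was 83.0% and 84.3% in vehicle and 85.0% and 86.2% in SP libraries. For the 2 ratios only the scale moves, since length is the same in both groups, while the share differs between groups by an amount that depends on the length. With 3 mice per group, *Chrna5* and *Chrm4* have wide intervals.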
